A study of Arundo donax with 9 samples.

Results

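Heat stress transcription factors (HSFs) and the heat shock proteins (HSPs) they regulate were followed in leaves of giant reed (*Arundo donax*) grown under 2 levels of long-term salinity. The set holds the unigenes, that is the assembled transcript clusters that stand for genes in a plant without a reference genome, whose best Swiss-Prot description names a heat stress transcription factor, a heat shock protein, a heat shock 70 kDa or cognate protein, a ClpB chaperone or an Hsp70-Hsp90 organizing protein. It counts 397 of the 255855 unigenes that are listed in at least 1 library, and these carry 88 different protein names. All plants belonged to G2, a single clone of a sterile polyploid grass, and were grown in pots that were irrigated every week. By the labels, the salt-treated groups received water with 250 mM NaCl (G2-S3, severe) or 420 mM NaCl (G2-S4, extreme). The concentrations in the study's methods differ slightly from these. The control group (G2-CK) received water without NaCl. RNA was taken from leaves with 3 biological replicates per group, each sequenced as 1 library, and by the study's methods the leaf was fully expanded and not senescing. The 3 comparisons ask which members of the heat shock system differ in G2-S3 from G2-CK, in G2-S4 from G2-CK, and in G2-S4 from G2-S3.

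HSFs bind heat shock elements in promoters, and in plants they form a large family. Class A factors carry activation motifs and switch on chaperone genes, class B factors lack these motifs and often act as repressors or as partners of class A, and class C factors, which have expanded in grasses, are less well understood. Their best known targets are the chaperones. HSP101 (ClpB) pulls proteins out of aggregates, HSP70 and HSP90 fold or hold client proteins with the help of co-chaperones such as the Hsp70-Hsp90 organizing protein (HOP), and small HSPs bind unfolding proteins without using ATP. Many of these genes have a constitutive copy and a copy induced by heat, salt, drought or oxidative stress, and others serve mitochondria, chloroplasts or the endoplasmic reticulum under all conditions.

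The 9 libraries held 23.01 to 25.69 M reads assigned to unigenes. Levels of single unigenes are given as FPKM (fragments per transcript length and library size), as deposited. A library's list stops at 0.3 FPKM, so that a unigene that is not listed in a library lies at or below that limit and is not known to be absent. For protein names and classes, the read counts of all unigenes with the name were summed and given as CPM (counts scaled to library size), scaled with TMM factors, and since CPM ignores transcript length it is used only to compare libraries and not genes. In leaf RNA of this kind, fewer cells of a type and less RNA per cell cannot be told apart. Across all unigenes, G2-S3 replicate 3 was nearer to the control libraries (root mean square log2 distance 0.685 to 0.700) than the other 2 G2-S3 libraries were (0.766 to 0.842). The leaf identity was checked with 34 names of chlorophyll-binding, photosystem I and Rubisco small chain proteins, whose summed level was between 10831 and 12350 CPM in G2-CK, between 8712 and 9489 CPM in G2-S3 and between 3733 and 4153 CPM in G2-S4, while 2 root marker names summed to at most 5.50 CPM. In G2-S4 vs G2-CK, 20 of the 26 leaf mesophyll names tested fell and 1 rose. In the same comparison 8 of 9 tested salt and osmotic response names rose, with sums of 509 to 577 CPM in G2-CK, 778 to 1058 CPM in G2-S3 and 2978 to 3643 CPM in G2-S4, and of 5 leaf senescence names 4 rose and 1 fell. The senescence names summed to 2907 to 3642 CPM in G2-CK, 1530 to 1879 CPM in G2-S3 and 1300 to 1790 CPM in G2-S4. Their summed level was thus lower in both salt groups, although most of the names rose in G2-S4 vs G2-CK. In G2-S3 vs G2-CK 0 of them rose and 1 fell. None of the listed markers was at 0 in all libraries. What part these shifts had in the results on heat shock genes was not tested.

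By class, the set holds 145 HSF unigenes, 12 of ClpB, 88 of HSP70, 56 of HSP90, 51 of small HSPs, 41 of co-chaperones and 4 of mitochondrial chaperonins. Of the HSF unigenes, 94 carry the HSF DNA-binding domain in the deposited annotation and 102 are named as HSFs in the second protein database used by the authors, and the remaining 43 have no function there. The HSP90 domain was annotated in 38 of the 56 HSP90 unigenes. The co-chaperone names are the least secure. For 19 of the 41 co-chaperone unigenes the second database names another protein, mostly an ankyrin repeat protein, which applies to 5 of 6 unigenes named as sti1 homolog, to 3 of 7 of HOP1, to 3 of 11 of HOP2 and to 2 of 4 of HOP3, and to none of the 9 called Hsp70-Hsp90 organizing protein. Of the 397 unigenes, 227 were listed in all 9 libraries, 29 in a single library, and 289 to 324 in each library. The low-count filter left 295 for the test. A polyploid genome and a de novo assembly split 1 protein name over up to 29 unigenes, and reads of near-identical copies may be shared between them, so values of single copies are less certain than those of a name.

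More members were called under extreme than under severe salt. In G2-S4 vs G2-CK, 48 of the 295 tested unigenes rose and 66 fell (edgeR quasi-likelihood test with Benjamini-Hochberg adjustment, threshold 0.05), where 28.0% of all 127554 tested unigenes were called, 14.2% higher and 13.8% lower. This is 38.6% of the members, with a median log2 fold change of -0.24 beside -0.03 over all tested unigenes. At the level of protein names, 19 rose and 20 fell of the 72 tested, against 51.6% of all 12242 tested names (31.6% higher and 20% lower). In G2-S3 vs G2-CK, 7 unigenes rose and 27 fell, with 5.73% called among all unigenes (3.41% higher, 2.32% lower), and 3 names rose and 8 fell, with 16.0% called among all names (10.5% higher, 5.51% lower). These severe-salt counts changed when single libraries were left out: without G2-CK replicate 2 they were 0 and 8 unigenes, without G2-CK replicate 3 0 and 14, without G2-CK replicate 1 1 and 11, without G2-S3 replicate 1 0 and 7 and without G2-S3 replicate 2 1 and 8, whereas without G2-S3 replicate 3 they were 10 and 28. The higher unigenes were 4 without G2-S4 replicate 1 and 3 without G2-S4 replicate 2. For names they ranged between 0 (without G2-CK replicate 2) and 5 (without G2-S3 replicate 3) higher, with 1 without G2-CK replicate 3, G2-S3 replicate 1 or G2-S3 replicate 2. Lower names were 2 without G2-CK replicate 2, G2-S3 replicate 1 or G2-S3 replicate 2, 3 without G2-CK replicate 3 and 4 without G2-CK replicate 1 or G2-S4 replicate 1. The shares over all unigenes moved in the same fits. Without G2-CK replicate 1, 2 or 3, 1.70%, 0.93% and 1.24% were higher and 1.21%, 0.745% and 0.977% lower. Without G2-S3 replicate 1, 2 or 3, 1.34%, 1.26% and 5.01% were higher and 0.675%, 0.713% and 3.21% lower. In G2-S4 vs G2-S3, 29 unigenes rose and 25 fell, with 14.1% called among all unigenes (7.23% higher, 6.87% lower), and 17 names rose and 8 fell, with 34.7% called among all names (20.7% higher and 14% lower), or 15 and 12 names with DESeq2. For the statements on overlap that follow, all 3 libraries of the first group lay above all 3 of the second in 20.9%, 37.5% and 28.7% of all tested names (G2-S3 over control, G2-S4 over control and G2-S4 over G2-S3, in that order) and below them in 15.8%, 25.4% and 19.4%, and for unigenes the shares were 12.4%, 21.1% and 15.6% above and 12.5%, 22.7% and 15.5% below. Names called lower in G2-S4 vs G2-CK numbered 13 when G2-CK replicate 2, G2-CK replicate 3 or G2-S4 replicate 3 was left out, and names called higher in G2-S4 vs G2-S3 numbered 11 when G2-S3 replicate 1 or replicate 2 of G2-S4 was left out. In G2-S4 vs G2-S3, names called lower numbered 5 when replicate 2 or 3 of G2-S3 or replicate 1 or 3 of G2-S4 was left out, and unigenes called lower numbered 15 without G2-S4 replicate 1 and 14 without replicate 2 or replicate 3 of that group.

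**Figure D1:**
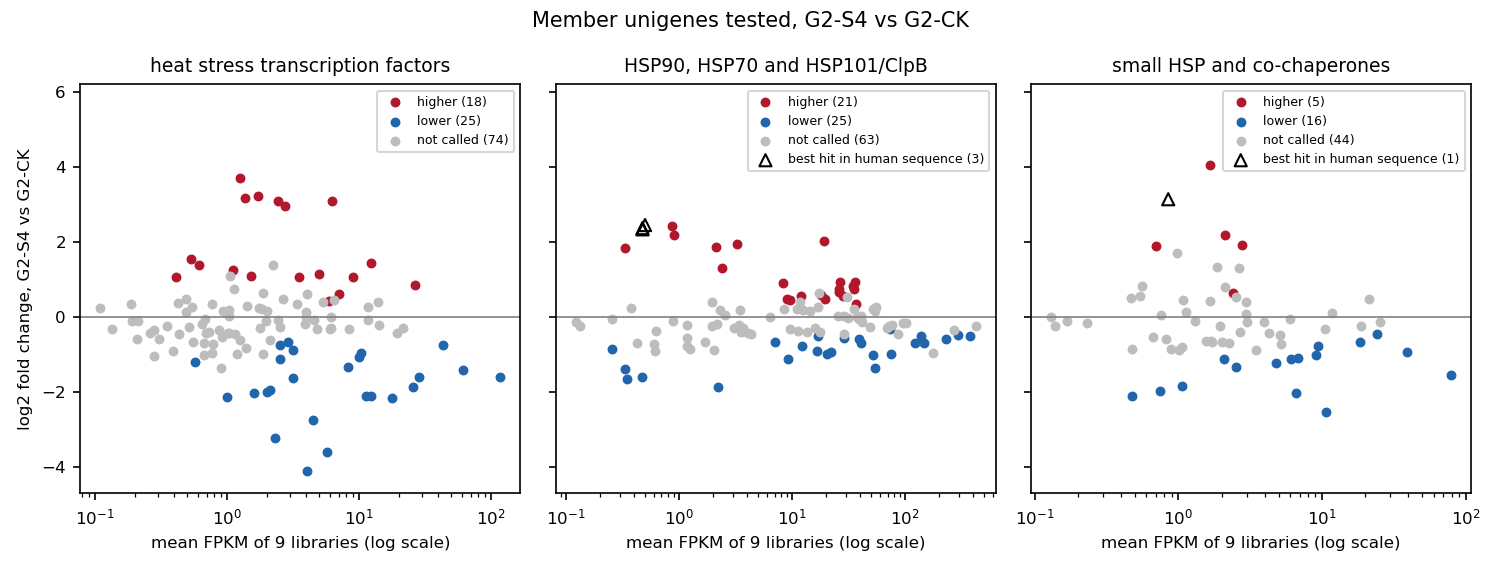
Log2 fold change of each tested member unigene in G2-S4 vs G2-CK (vertical axis) against its mean level (horizontal axis), in separate panels for groups of classes, with called unigenes in colour. Unigenes whose best nucleotide hit is a human sequence are open triangles instead. Of 295 unigenes 48 were called higher and 66 lower. All HSFs share a panel and their classes are not marked, and of the 17 class C unigenes 10 were called higher and 0 lower.

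The class sums did not share a pattern. Summed over all HSF unigenes, the level was 865, 821 and 884 CPM in the G2-CK libraries, 603, 573 and 779 CPM in G2-S3 and 549, 586 and 506 CPM in G2-S4, so that every salt library lay below every control library and G2-S3 replicate 3 was closest to the controls. The HSP90 sum was 2183, 2025 and 1982 CPM in G2-CK, 1808, 1787 and 1696 CPM in G2-S3 and 1482, 1514 and 1357 CPM in G2-S4, with no overlap between any of the groups. The small HSP sum behaved alike, with 152, 137 and 141 CPM in G2-CK, 123, 121 and 111 CPM in G2-S3 and 97.3, 98.7 and 97.7 CPM in G2-S4. In ratios of the means, G2-S4 reached 0.638 of the G2-CK level for HSFs, 0.703 for HSP90 and 0.682 for small HSPs. These falls lay mostly in a few names with many reads, described below. In G2-S4 vs G2-CK, 5 HSF names rose and 7 fell, with a median log2 fold change of 0.05 over tested names. For HSP90, 3 names rose and 2 fell (median -0.53), and for small HSPs 4 rose and 4 fell (median -0.27). With green plant hits only, 1 HSP90 name rose and 2 fell (median -0.57). For small HSPs 3 names with such a hit rose and 4 fell (median -0.30). Most of the small HSP fall lay in the name with the most reads, and most of the HSF fall in putative A-6a and B-2c. The co-chaperone sum averaged 219 ± 10.2 CPM in G2-CK, 174 ± 9.25 CPM in G2-S3 and 156 ± 18.8 CPM in G2-S4 (SD, n = 3 each), again with all salt libraries below the controls. HSP70 and ClpB did not share this pattern. The HSP70 sum averaged 1283 ± 42.1, 1276 ± 6.53 and 1403 ± 164 CPM in G2-CK, G2-S3 and G2-S4, and the ClpB sum 221 ± 7.83, 214 ± 11.9 and 233 ± 17 CPM, and in both the groups overlapped. The small differences of HSP70 and ClpB between G2-S4 and G2-CK turned round when no normalization factors were used (log2 ratio 0.12 with factors and -0.02 without for HSP70, 0.08 and -0.06 for ClpB), and these sums carry no test.

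**Figure D2:**
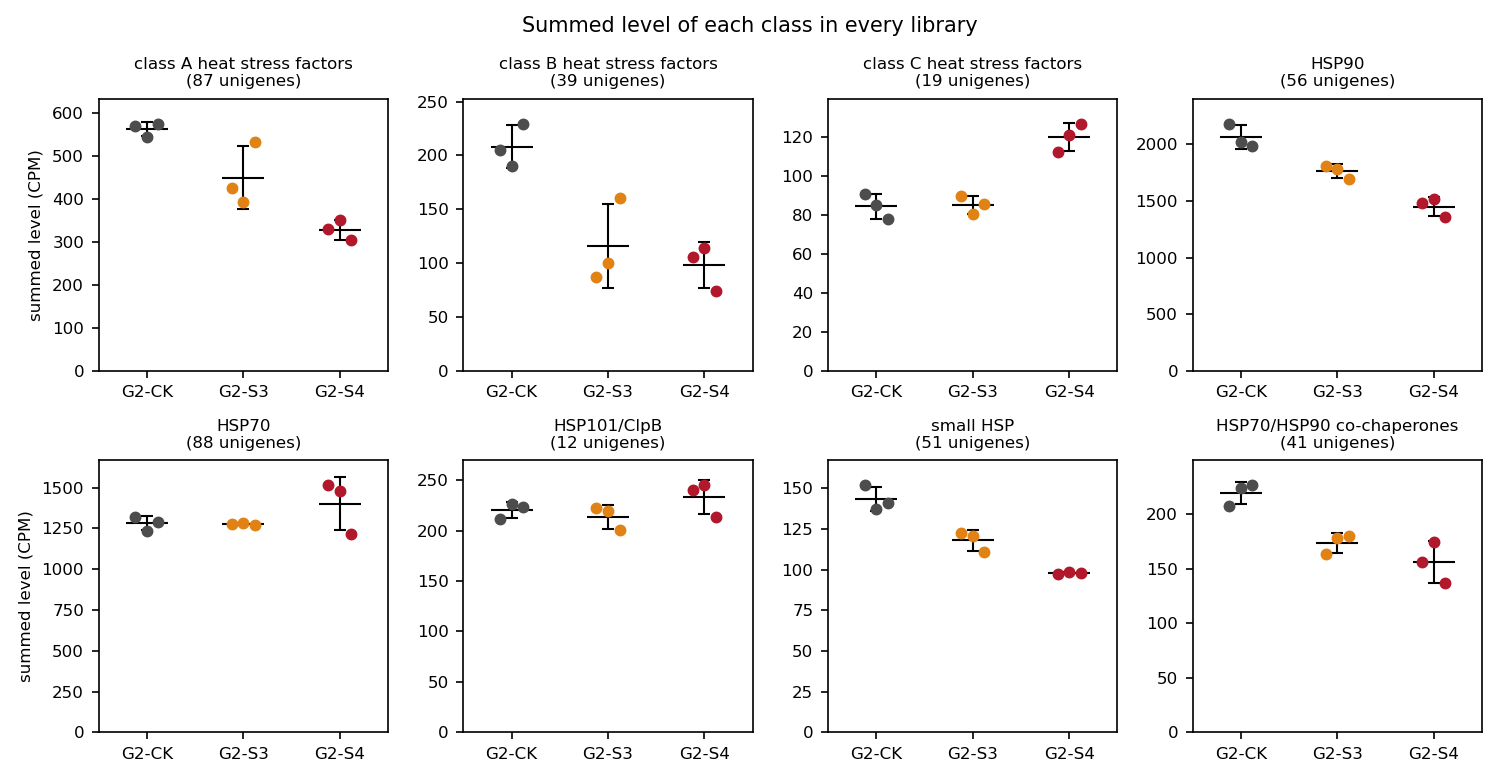
Summed CPM of each class (vertical axes, starting at 0) in G2-CK, G2-S3 and G2-S4, with 1 point per library and the mean and SD of 3. HSFs are drawn by class A, B and C. The sums of class A factors and HSP90 are lower in all 3 G2-S4 libraries than in all 3 G2-CK libraries (330, 351 and 304 against 570, 545 and 576 CPM for class A). The class C sum is higher in G2-S4 (112, 121 and 127 against 90.7, 85.0 and 77.8 CPM), while the sums of HSP70 and ClpB overlap.

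Among the HSFs, 18 unigenes rose and 25 fell in G2-S4 vs G2-CK, 36.8% of the 117 tested. Of 69 tested class A unigenes 7 rose and 13 fell, of 31 class B unigenes 1 rose and 12 fell, and of 17 class C unigenes 10 rose and none fell. By protein name, A-2e, A-4b, C-1a, C-1b and C-2b rose and the putative A-6a, A-2b, A-2c, A-2d, A-6a, B-2a and B-2c fell, while A-1, A-3, A-4d, A-5, A-9, B-1, B-2b and C-2a were not called in this comparison, and A-2a, a single unigene at no more than 0.171 CPM in any library, was not tested. The calls of A-6a, B-2a, A-2c and C-1a held in 10, 11, 8 and 10 of 15 alternative processings.

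The largest decrease of a factor was that of A-2d. Factors of the A-2 type are amplifiers of the heat response in Arabidopsis and tomato, where they are among the most strongly heat-induced genes. The level of A-2d was 38.4, 49.4 and 46.9 CPM in G2-CK, 6.48, 9.55 and 13.6 CPM in G2-S3 and 6.39, 6.88 and 4.82 CPM in G2-S4. Both salt groups lay far below the controls without overlap, and they overlapped each other. In G2-S4 vs G2-CK this was a log2 fold change of -2.90 ± 0.26 (SE), to 0.134 of the control (edgeR adjusted p = 3.77e-05), and in G2-S3 vs G2-CK it was -2.18 ± 0.25 (SE), to 0.220 of the control (edgeR adjusted p = 0.00161). Of its 7 unigenes, all tested, 5 fell in each of these comparisons and none rose. The unigene with the largest share of its reads, Cluster-14027.194119, had 9.88, 15.8 and 16.3 FPKM in G2-CK, 1.51, 1 and 3.77 FPKM in G2-S3 and 1.37, 1.03 and 0.770 FPKM in G2-S4. A related copy, Cluster-14027.164547, had 11.4, 10.4 and 7.21 FPKM in G2-CK and 1.03, 2.23 and 2.82 FPKM in G2-S3, and in G2-S4 it was listed only in replicate 2, at 0.970 FPKM. It was the A-2d unigene that also fell in G2-S4 vs G2-S3 (log2 fold change -1.89 ± 0.48 (SE), edgeR adjusted p = 0.0247), a call that held in 10 of 16 alternatives.

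The other A-2 factors did not move as one. The level of A-2b was 34, 37.1 and 36.8 CPM in G2-CK, 25.2, 22.96 and 25.7 CPM in G2-S3 and 24.5, 27.4 and 24.4 CPM in G2-S4, which is a step of about the same size at both salt levels (log2 fold change -0.55 ± 0.08 (SE), edgeR adjusted p = 0.00483 for G2-S3 vs G2-CK, and log2 fold change -0.50 ± 0.08 (SE), edgeR adjusted p = 0.000991 for G2-S4 vs G2-CK). A-2c averaged 11.8 ± 1.59 CPM in G2-CK, 7.40 ± 2.73 CPM in G2-S3 and 6.46 ± 2.21 CPM in G2-S4 (SD, n = 3 each) and was called lower only in G2-S4 vs G2-CK (log2 fold change -0.87 ± 0.31 (SE), edgeR adjusted p = 0.0409). A-2e went the other way. It had 22.1, 26.8 and 19.4 CPM in G2-S4 and 12.1, 14.9 and 15.1 CPM in G2-CK, with 17.4, 16.8 and 20.9 CPM in G2-S3, and all G2-S4 libraries lay above all controls (log2 fold change 0.70 ± 0.15 (SE), edgeR adjusted p = 0.00367). For A-2d, A-2b and A-2e these calls held in every alternative processing that was run, and that of A-2c did not.

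The putative A-6a factor, whose Arabidopsis relatives belong to the abscisic acid and salt response, fell with extreme salt. Its level was 335, 292 and 327 CPM in G2-CK, 238, 194 and 306 CPM in G2-S3 and 117, 126 and 109.6 CPM in G2-S4. The G2-S4 libraries lay below all others, and the G2-S3 libraries overlapped the controls through replicate 3. The log2 fold change was -1.44 ± 0.15 (SE) in G2-S4 vs G2-CK (edgeR adjusted p = 8.67e-05) and -1.07 ± 0.15 (SE) in G2-S4 vs G2-S3 (edgeR adjusted p = 0.000963), and in G2-S3 vs G2-CK it was -0.37 and was not called. Its main copy, Cluster-14027.151980, averaged 174 FPKM in G2-CK, 126 FPKM in G2-S3 and 52.4 FPKM in G2-S4. Among the remaining class A factors, A-4b was higher in G2-S4, with 13.5, 13.0 and 13.3 CPM in G2-CK, 15.4, 14.9 and 15.5 CPM in G2-S3 and 18.95, 19.5 and 18.5 CPM in G2-S4 (log2 fold change 0.52 ± 0.08 (SE), edgeR adjusted p = 0.000487 for G2-S4 vs G2-CK). A-4 factors are linked to reactive oxygen signalling in Arabidopsis. A-3, which acts downstream of the dehydration-responsive factor DREB2A in Arabidopsis, was called higher in G2-S3 vs G2-CK, with 19.5, 23.3 and 19.8 CPM in G2-S3 and 16.4, 13.4 and 15.7 CPM in G2-CK (log2 fold change 0.46 ± 0.12 (SE), edgeR adjusted p = 0.0311), a call that was lost in 5 of 15 alternatives, and it had 17.9, 19.1 and 15.9 CPM in G2-S4. A-1, the master regulator type, stayed between 60.5 and 65.5 CPM in the group means and was called in no comparison.

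Class B was led by B-2c. Its level was 166, 159.7 and 196 CPM in G2-CK, 65.2, 75.5 and 125 CPM in G2-S3 and 76.2, 83.3 and 45.0 CPM in G2-S4. Both salt groups lay below the controls, G2-S3 replicate 3 was again the nearest to them, and the salt groups overlapped. In G2-S4 vs G2-CK the log2 fold change was -1.35 ± 0.28 (SE) (edgeR adjusted p = 0.00324) and 10 of its 11 tested unigenes fell. In G2-S3 vs G2-CK it was -0.97 ± 0.27 (SE) (edgeR adjusted p = 0.0435), which held in 7 of 15 alternatives. B-2a was lower in G2-S4, at 8.39, 12.6 and 11.1 CPM against 15.1, 16.4 and 16.5 CPM in G2-CK (log2 fold change -0.58 ± 0.18 (SE), edgeR adjusted p = 0.0247). B-1, a coactivator of class A factors in tomato, averaged 18.4 ± 1.67 CPM in G2-S4 and 17.6 ± 4.87 CPM in G2-CK (SD, n = 3 each) and was not called. Its copies differed in G2-S4 vs G2-S3. Cluster-14027.133232 was higher in G2-S4, with 7.19, 5.73 and 5.64 FPKM against 0.550, 0.710 and 3.54 FPKM in G2-S3 (log2 fold change 2.02 ± 0.53 (SE), edgeR adjusted p = 0.0298). Another copy, Cluster-14027.159563, was called lower in that comparison.

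Class C was the only factor class in which no tested unigene fell in G2-S4 vs G2-CK or in G2-S4 vs G2-S3. Its median log2 fold change over unigenes was 1.06 in G2-S4 vs G2-CK, beside -0.28 for class A and -0.72 for class B. Over protein names the medians were 1.17, -0.09 and -0.26, since copies of 1 name count separately among unigenes and B-2c holds 11 of the 31 tested in class B. The summed level of class C was 90.7, 85.0 and 77.8 CPM in G2-CK, 89.7, 80.4 and 85.4 CPM in G2-S3 and 112, 121 and 127 CPM in G2-S4. Among the class C names C-2b had the largest change, with 0.831, 0.896 and 0.779 CPM in G2-CK, 1.02, 1.60 and 1.12 CPM in G2-S3 and 5.90, 8.22 and 8.43 CPM in G2-S4. The G2-S4 libraries stood clear of the other 6, at 8.94-fold the control level (log2 fold change 3.16 ± 0.25 (SE), edgeR adjusted p = 2.38e-05) and 6.01-fold the G2-S3 level (log2 fold change 2.59 ± 0.24 (SE), edgeR adjusted p = 0.000152), and all 3 of its unigenes rose. C-1b, whose rice counterpart takes part in salt tolerance, had 25.7, 21.6 and 23.5 CPM in G2-CK, 27.9, 27.6 and 28.8 CPM in G2-S3 and 51.1, 50.7 and 44.3 CPM in G2-S4. Here too the G2-S4 libraries exceeded all others, with log2 fold change 1.05 ± 0.09 (SE), edgeR adjusted p = 3.11e-05 against G2-CK, while the difference of 0.25 in G2-S3 vs G2-CK was not called. C-1a rested on 2 libraries, since replicate 1 of G2-S4 had 5.45 CPM, within the range of G2-CK (5.70, 4.23 and 4.82 CPM), and replicates 2 and 3 had 15.4 and 15.1 CPM (log2 fold change 1.29 ± 0.41 (SE), edgeR adjusted p = 0.0263), and the call was lost without replicate 2 or 3 of either G2-S4 or G2-CK.

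In C-2a the sum and single copies differed. The name was at 51.9 ± 6.34 CPM in G2-S4 and 55.2 ± 5.61 CPM in G2-CK (SD, n = 3 each) and was not called. Its main copy, Cluster-14027.168656, took 60.7% of the reads and was at 18.2, 16.3 and 19.7 FPKM in G2-S4 and 25.8, 25.1 and 21.98 FPKM in G2-CK (log2 fold change -0.29 ± 0.12 (SE), edgeR adjusted p = 0.0923). A lower copy, Cluster-14027.87490, had 0.990, 0.380 and 0.570 FPKM in G2-CK, 1.58, 1.33 and 1.47 FPKM in G2-S3 and 3.53, 3.87 and 8.03 FPKM in G2-S4, and rose without overlap (log2 fold change 3.10 ± 0.43 (SE), edgeR adjusted p = 0.000416 for G2-S4 vs G2-CK). Cluster-14027.3528 was listed in no G2-CK and no G2-S3 library and had 2.23, 3.57 and 5.48 FPKM in G2-S4. Against the list limit of 0.3 FPKM per library this is at least 12.5-fold higher in G2-S4 than in G2-CK.

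**Figure D3:**
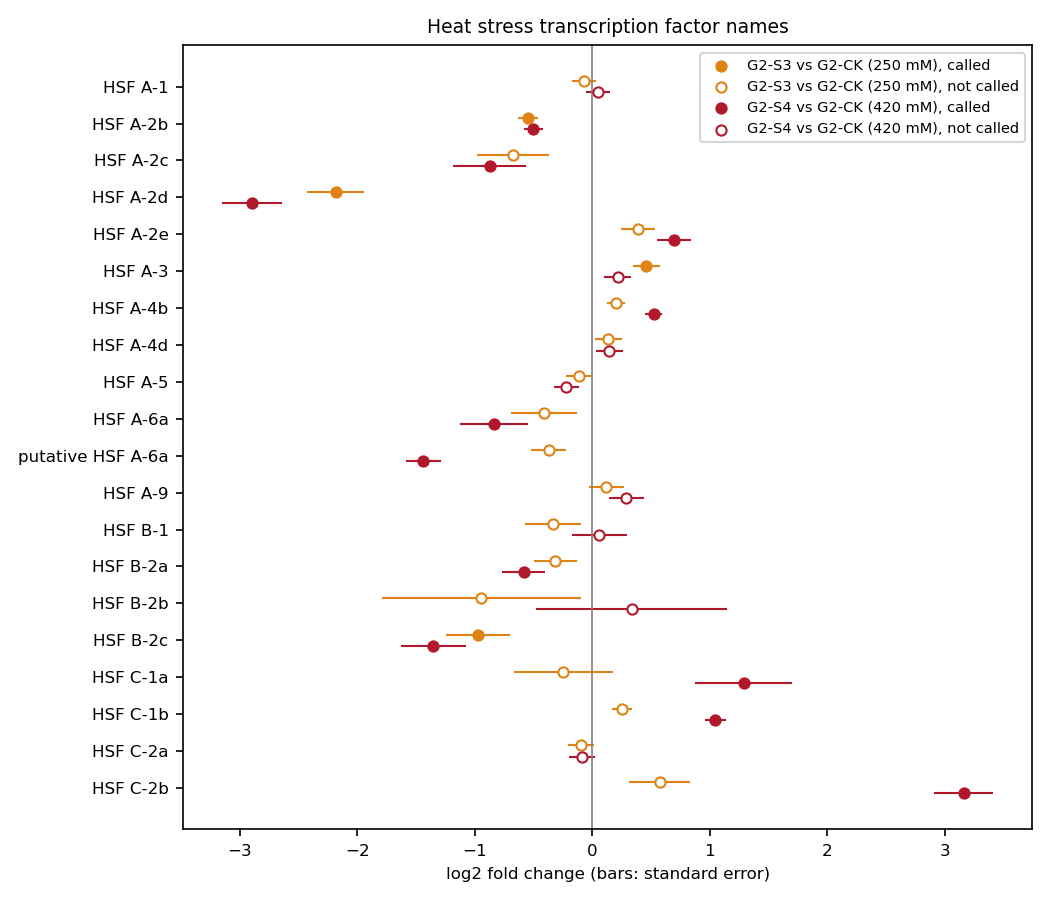
Log2 fold change with its SE (horizontal axis) of the 20 tested HSF names in G2-S4 vs G2-CK and in G2-S3 vs G2-CK. The name A-2d lies farthest to the left in both (-2.90 and -2.18), and C-2b lies farthest to the right in G2-S4 vs G2-CK (3.16).

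The chaperones that HSFs regulate did not follow a single direction. For HSP101, the cytosolic disaggregase needed for acquired heat tolerance, the protein name is ClpB1, and its level was 38.1, 28.5 and 28.4 CPM in G2-CK, 22.1, 23.2 and 23.8 CPM in G2-S3 and 36.8, 44.8 and 31.8 CPM in G2-S4. The G2-S3 libraries were the lowest, without overlap with either of the other groups. ClpB1 was higher in G2-S4 than in G2-S3 (log2 fold change 0.71 ± 0.15 (SE), edgeR adjusted p = 0.00628), a call that held in all 15 alternatives, and neither salt group was called against G2-CK (log2 fold change -0.46 ± 0.15 (SE), edgeR adjusted p = 0.0663 for G2-S3, and log2 fold change 0.25 ± 0.15 (SE), edgeR adjusted p = 0.179 for G2-S4). The chloroplast form ClpB2 averaged 149 ± 11.6, 161 ± 11.5 and 164 ± 8.13 CPM in G2-CK, G2-S3 and G2-S4 and was called in no comparison. The mitochondrial ClpB4 was lower in both salt groups, with 29.9, 34.9 and 23.96 CPM in G2-S4 and 27.5, 30.9 and 27.0 CPM in G2-S3 against 36.7, 39.1 and 39.4 CPM in G2-CK, but both calls were near the threshold (edgeR adjusted p = 0.0338 and 0.0498) and were lost in 6 and 10 of 15 alternatives. No single ClpB unigene was called against G2-CK.

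Of 64 tested HSP70 unigenes, 17 rose and 7 fell in G2-S4 vs G2-CK, and by name 7 rose and 1 fell, of which 2 that rose have no green plant hit and are described further on. The name that fell, BIP5, a luminal binding protein of the rice endoplasmic reticulum, had 0, 0.0459 and 0 CPM in G2-S4 against 0.565, 1.43 and 1.17 CPM in G2-CK, which is near the detection limit in all libraries. The names that rose include organellar forms. The mitochondrial HSP70, which drives protein import and folding in the matrix, had 295, 269 and 269 CPM in G2-CK, 327, 358 and 268 CPM in G2-S3 and 475, 433 and 378 CPM in G2-S4. All G2-S4 libraries lay above all others (log2 fold change 0.63 ± 0.12 (SE), edgeR adjusted p = 0.00234 against G2-CK), and of its 19 unigenes 7 rose and 3 fell. HSP70-17, a relative of HSP70 in the endoplasmic reticulum, had 89.5, 96.7 and 113 CPM in G2-S4 against 64.5, 72.7 and 77.5 CPM in G2-CK (log2 fold change 0.48 ± 0.11 (SE), edgeR adjusted p = 0.00526). HSP70-16, which belongs to the HSP110 branch in Arabidopsis, was higher in both salt groups by about the same amount, with 29.7, 28.4 and 29.6 CPM in G2-CK, 37.6, 38.0 and 36.5 CPM in G2-S3 and 39.1, 35.7 and 35.1 CPM in G2-S4 (log2 fold change 0.35 ± 0.07 (SE), edgeR adjusted p = 0.0118 in G2-S3, and log2 fold change 0.33 ± 0.07 (SE), edgeR adjusted p = 0.00377 in G2-S4), with the G2-S3 call lost without G2-CK replicate 2. Of the HSP70 names with a green plant hit that rose, HSP70-8 rose most, with 2.02, 1.61 and 2.01 CPM in G2-CK, 3.23, 3.66 and 2.12 CPM in G2-S3 and 7.86, 7.58 and 8.25 CPM in G2-S4. The G2-S4 libraries differed little from each other and stood 4.20-fold above the controls (log2 fold change 2.07 ± 0.22 (SE), edgeR adjusted p = 9.14e-05), and 2.63-fold above G2-S3 (edgeR adjusted p = 0.00147).

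Among the cytosolic HSP70s, heat shock cognate 70 kDa protein, the constitutive form, had 368, 323 and 339.9 CPM in G2-CK, 291, 264 and 312 CPM in G2-S3 and 322, 327 and 234 CPM in G2-S4, with overlap between G2-S4 and the controls, and was not called in any comparison. Cognate protein 2 averaged 171 ± 31.4 CPM in G2-S4 and 212 ± 20.3 CPM in G2-CK and was not called (edgeR adjusted p = 0.0906), and cognate protein 1 rose to 8.77 ± 1.15 CPM in G2-S4, against 5.56 ± 0.450 CPM in G2-CK (log2 fold change 0.65 ± 0.17 (SE), edgeR adjusted p = 0.00898). The name heat shock 70 kDa protein, which covers heat-inducible cytosolic forms in other plants, was lowest in G2-S3. It had 35.2, 27.2 and 19.2 CPM in G2-CK, 14.5, 14.3 and 16.1 CPM in G2-S3 and 29.4, 27.8 and 21.3 CPM in G2-S4, so that G2-S3 lay below both other groups (log2 fold change -0.86 ± 0.21 (SE), edgeR adjusted p = 0.0251 against G2-CK, and log2 fold change 0.81 ± 0.21 (SE), edgeR adjusted p = 0.0157 for G2-S4 against G2-S3). These calls held in 11 and 13 of 15 alternatives. HSP70-14 and the chloroplast HSP70-6 were called in no comparison, with group means of 147 to 164 CPM and 146 to 157 CPM.

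Of 38 tested HSP90 unigenes, 7 rose and 18 fell in G2-S4 vs G2-CK, which is 65.8% called. Among the 36 with a green plant hit, 5 rose and 18 fell, and the others are described further on. Most of the called unigenes belong to HSP90-5, the chloroplast HSP90 that works in chloroplast biogenesis. Its level was 1399, 1305 and 1202 CPM in G2-CK, 1216, 1150.2 and 1093 CPM in G2-S3 and 884, 875 and 882 CPM in G2-S4. The G2-S4 libraries were nearly equal and lay below all others, at 0.676 of the control (log2 fold change -0.56 ± 0.08 (SE), edgeR adjusted p = 0.000422) and 0.763 of G2-S3 (log2 fold change -0.39 ± 0.08 (SE), edgeR adjusted p = 0.00578), whereas G2-S3 overlapped G2-CK. Of its 24 tested unigenes 14 fell and 3 rose. Cluster-14027.165114, for example, averaged 70.4 FPKM in G2-CK, 53.2 FPKM in G2-S3 and 32.05 FPKM in G2-S4 (edgeR adjusted p = 7.14e-05 for G2-S4 vs G2-CK), and Cluster-14027.167497 had 40.1, 38.3 and 36.9 FPKM in G2-S4 and 35.4, 32.3 and 31.1 FPKM in G2-CK (log2 fold change 0.36 ± 0.12 (SE), edgeR adjusted p = 0.0428). The leaf mesophyll markers fell in the same libraries, as given above, and their part in the HSP90-5 result was not tested.

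The cytosolic HSP90, heat shock protein 81-1, had 753, 691 and 749 CPM in G2-CK, 551, 595 and 572 CPM in G2-S3 and 538, 587 and 426 CPM in G2-S4. Every salt library lay below every control, with log2 fold change -0.50 ± 0.11 (SE), edgeR adjusted p = 0.00521 for G2-S4 vs G2-CK and log2 fold change -0.35 ± 0.11 (SE), edgeR adjusted p = 0.0638 for G2-S3 vs G2-CK, the G2-S3 value not past the threshold. Of its reads, 97.2% came from Cluster-14027.158734. The mitochondrial HSP90-6 went the other way, as mitochondrial HSP70 did. It had 27.7, 25.4 and 26.8 CPM in G2-CK, 38.2, 38.8 and 30.0 CPM in G2-S3 and 47.9, 43.5 and 43.0 CPM in G2-S4, which puts all salt libraries above all controls and all G2-S4 libraries above all G2-S3 libraries. The log2 fold change was 0.75 ± 0.11 (SE) in G2-S4 vs G2-CK (edgeR adjusted p = 0.000416) and 0.42 ± 0.11 (SE) in G2-S3 vs G2-CK (edgeR adjusted p = 0.0293), and the G2-S3 call held in 10 of 15 alternatives.

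Several co-chaperones that connect or stimulate these machines were lower. Hsp70-Hsp90 organizing protein, which hands clients from HSP70 to HSP90, had 113, 130.2 and 131 CPM in G2-CK, 85.2, 96.9 and 95.1 CPM in G2-S3 and 85.4, 100 and 73.1 CPM in G2-S4, with all salt libraries below all controls (log2 fold change -0.54 ± 0.12 (SE), edgeR adjusted p = 0.00445 for G2-S4 vs G2-CK, and log2 fold change -0.43 ± 0.12 (SE), edgeR adjusted p = 0.0371 for G2-S3 vs G2-CK, the second call holding in 9 of 15 alternatives). The activator of 90 kDa heat shock protein ATPase homolog 1, which speeds up ATP hydrolysis by HSP90, had 17.6, 20.7 and 15.4 CPM in G2-S4 against 32.01, 25.2 and 28.2 CPM in G2-CK and 19.01, 26.6 and 27.3 CPM in G2-S3 (log2 fold change -0.67 ± 0.17 (SE), edgeR adjusted p = 0.00807 against G2-CK). HOP2 averaged 19.4 ± 1.32, 14.5 ± 1.05 and 11.4 ± 0.920 CPM in G2-CK, G2-S3 and G2-S4 (SD, n = 3 each) and fell in all 3 comparisons (in G2-S3 vs G2-CK in 8 and in G2-S4 vs G2-S3 in 9 of 15 alternatives), while HOP1 and HOP3 were called in none. As said above, several unigenes of HOP1, HOP2 and HOP3 are ankyrin repeat proteins in the second database. Over the class, 2 unigenes rose and 10 fell of 33 tested in G2-S4 vs G2-CK.

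**Figure D4:**
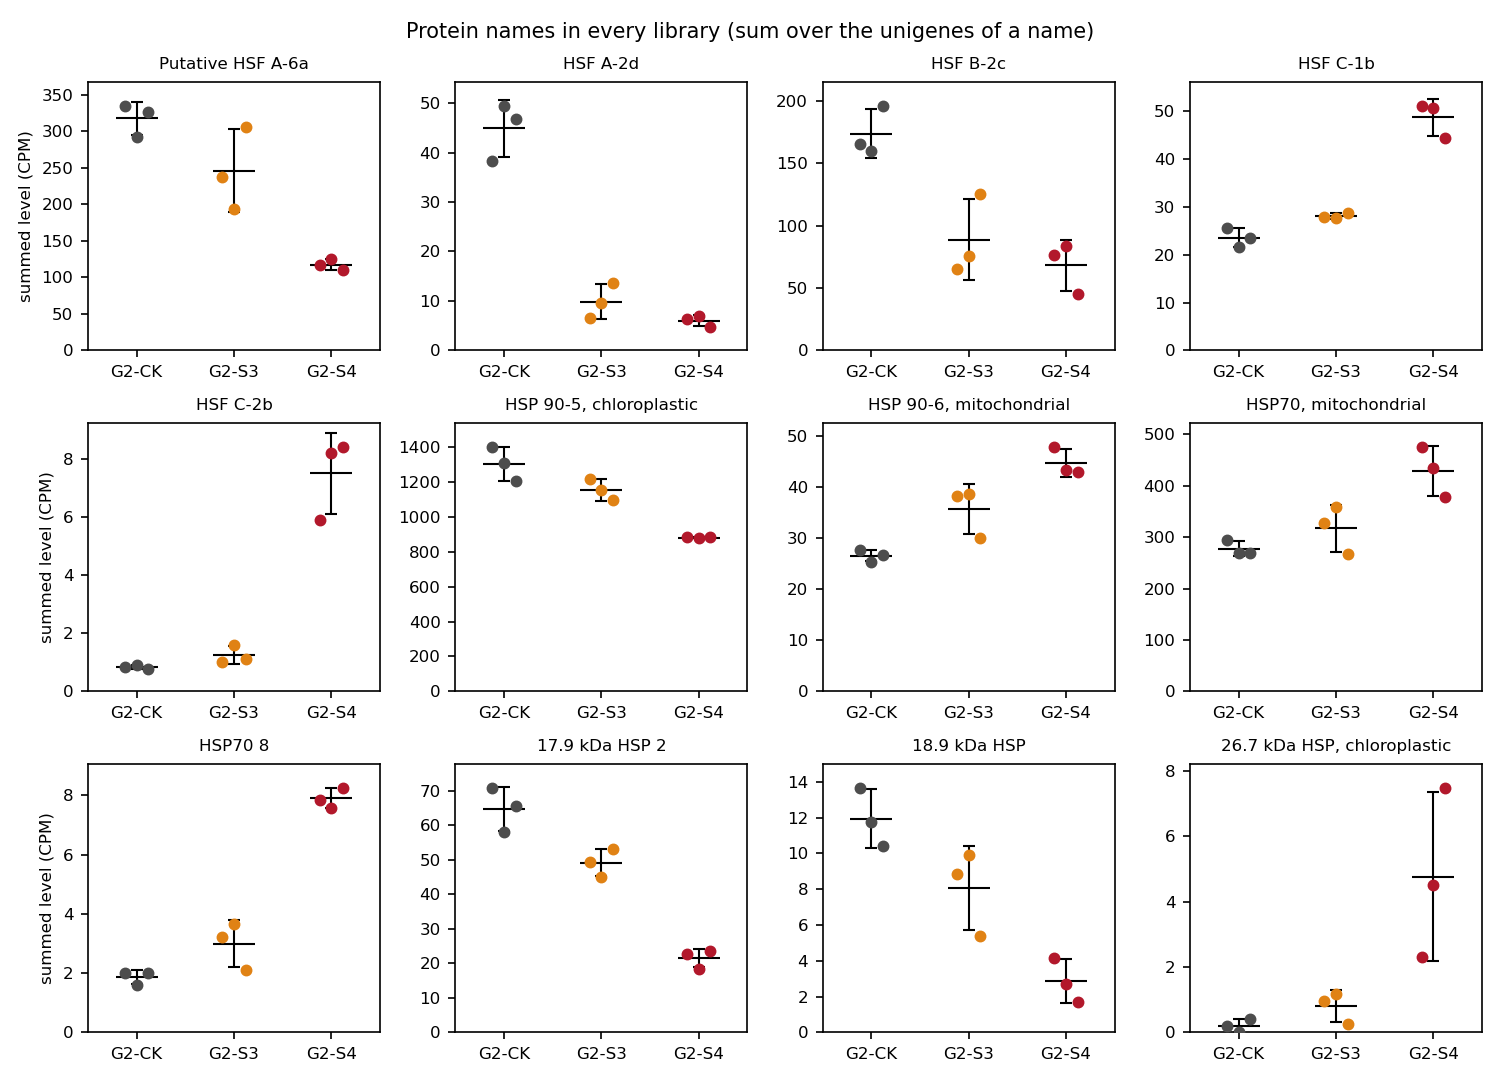
CPM of 12 protein names (vertical axes, starting at 0) in the libraries of G2-CK, G2-S3 and G2-S4, with 1 point per library and the mean and SD of 3. The name A-2d is low in both salt groups, C-2b and HSP70-8 stand out in G2-S4 (5.90, 8.22 and 8.43 CPM and 7.86, 7.58 and 8.25 CPM), and HSP90-5 is lowest in G2-S4.

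Small HSPs, the class most strongly induced by heat in other plants, showed no common rise. Of 33 tested unigenes 4 rose and 6 fell in G2-S4 vs G2-CK, and by name 4 rose (the 17.9 kDa class I, 18.8 kDa class V, chloroplast 26.7 kDa and beta-1 proteins) and 4 fell (17.9 kDa protein 2, the 18.9 kDa, peroxisomal 16.0 kDa and mitochondrial 26.2 kDa proteins). The name beta-1 has no green plant hit and is described further on. Of the calls by name, that of the 18.8 kDa protein held in 5 of 15 alternatives and that of the 16.0 kDa protein in 4 of 15. The call of the 17.9 kDa class I protein was lost with DESeq2. The name with the most reads, 17.9 kDa heat shock protein 2, fell with dose. It had 70.8, 58.0 and 65.5 CPM in G2-CK, 49.4, 45.1 and 53.0 CPM in G2-S3 and 22.8, 18.4 and 23.4 CPM in G2-S4, with no overlap between the groups. The G2-S4 level was 0.333 of G2-CK (log2 fold change -1.59 ± 0.12 (SE), edgeR adjusted p = 1.6e-05) and 0.439 of G2-S3 (log2 fold change -1.19 ± 0.12 (SE), edgeR adjusted p = 0.000174), both held in every alternative, and the step in G2-S3 vs G2-CK (edgeR adjusted p = 0.0442) held in 9 of 15. The 18.9 kDa heat shock protein was lower too, with 4.15, 2.71 and 1.71 CPM in G2-S4 and 8.83, 9.92 and 5.41 CPM in G2-S3 against 13.7, 11.8 and 10.4 CPM in G2-CK (log2 fold change -2.06 ± 0.32 (SE), edgeR adjusted p = 0.00074 for G2-S4 vs G2-CK). In the opposite direction, the chloroplast 26.7 kDa heat shock protein, a type that protects photosystems under heat, had 0.198, 0 and 0.410 CPM in G2-CK, 0.976, 1.18 and 0.250 CPM in G2-S3 and 2.32, 4.50 and 7.48 CPM in G2-S4. All G2-S4 libraries exceeded all others, though they differed more than 3-fold among themselves (log2 fold change 4.55 ± 0.89 (SE), edgeR adjusted p = 0.00252 against G2-CK). With control levels at or near 0, the fitted log2 value moved between 3.17 and 5.55 over the alternatives, and the call held in all 15. Its main copy, Cluster-14027.14549, was listed in no control library and had 2.05, 4.15 and 7.38 FPKM in G2-S4, at least 15.1-fold higher than the list limit allows in G2-CK.

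The other small HSPs described are cytosolic forms of class I and class VI. The 17.9 kDa class I protein averaged 10.4 ± 0.139 CPM in G2-S4 and 7.82 ± 0.667 CPM in G2-CK (log2 fold change 0.41 ± 0.11 (SE), edgeR adjusted p = 0.0123), and its copy Cluster-14027.109713 had 1.49, 1.2 and 0.820 FPKM in G2-CK, 2.85, 3.79 and 2.43 FPKM in G2-S3 and 4.03, 3.86 and 4.63 FPKM in G2-S4, called higher in both salt groups (log2 fold change 1.93 ± 0.30 (SE), edgeR adjusted p = 0.000844 in G2-S4, and log2 fold change 1.42 ± 0.30 (SE), edgeR adjusted p = 0.0228 in G2-S3), the G2-S3 call holding in 11 of 16 alternatives. The 22.3 kDa class VI protein was lowest in G2-S3, at 21.7, 20.7 and 13.8 CPM, against 28.7, 31.2 and 26.2 CPM in G2-S4 and 27.7, 24.3 and 22.2 CPM in G2-CK, and was called only in G2-S4 vs G2-S3 (log2 fold change 0.61 ± 0.17 (SE), edgeR adjusted p = 0.0199), which was lost without G2-S4 replicate 1 or 2. A class I unigene, Cluster-14027.253922, annotated as 16.9 kDa class I heat shock protein 2, was left out of the test by the low-count filter. It was listed in no G2-CK library and had 2.90, 8.43 and 4.83 FPKM in G2-S4, at least 18.0-fold higher than in G2-CK, with no test. This unigene was not confined to G2-S4, since it was also listed in G2-S3.

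**Figure D5:**
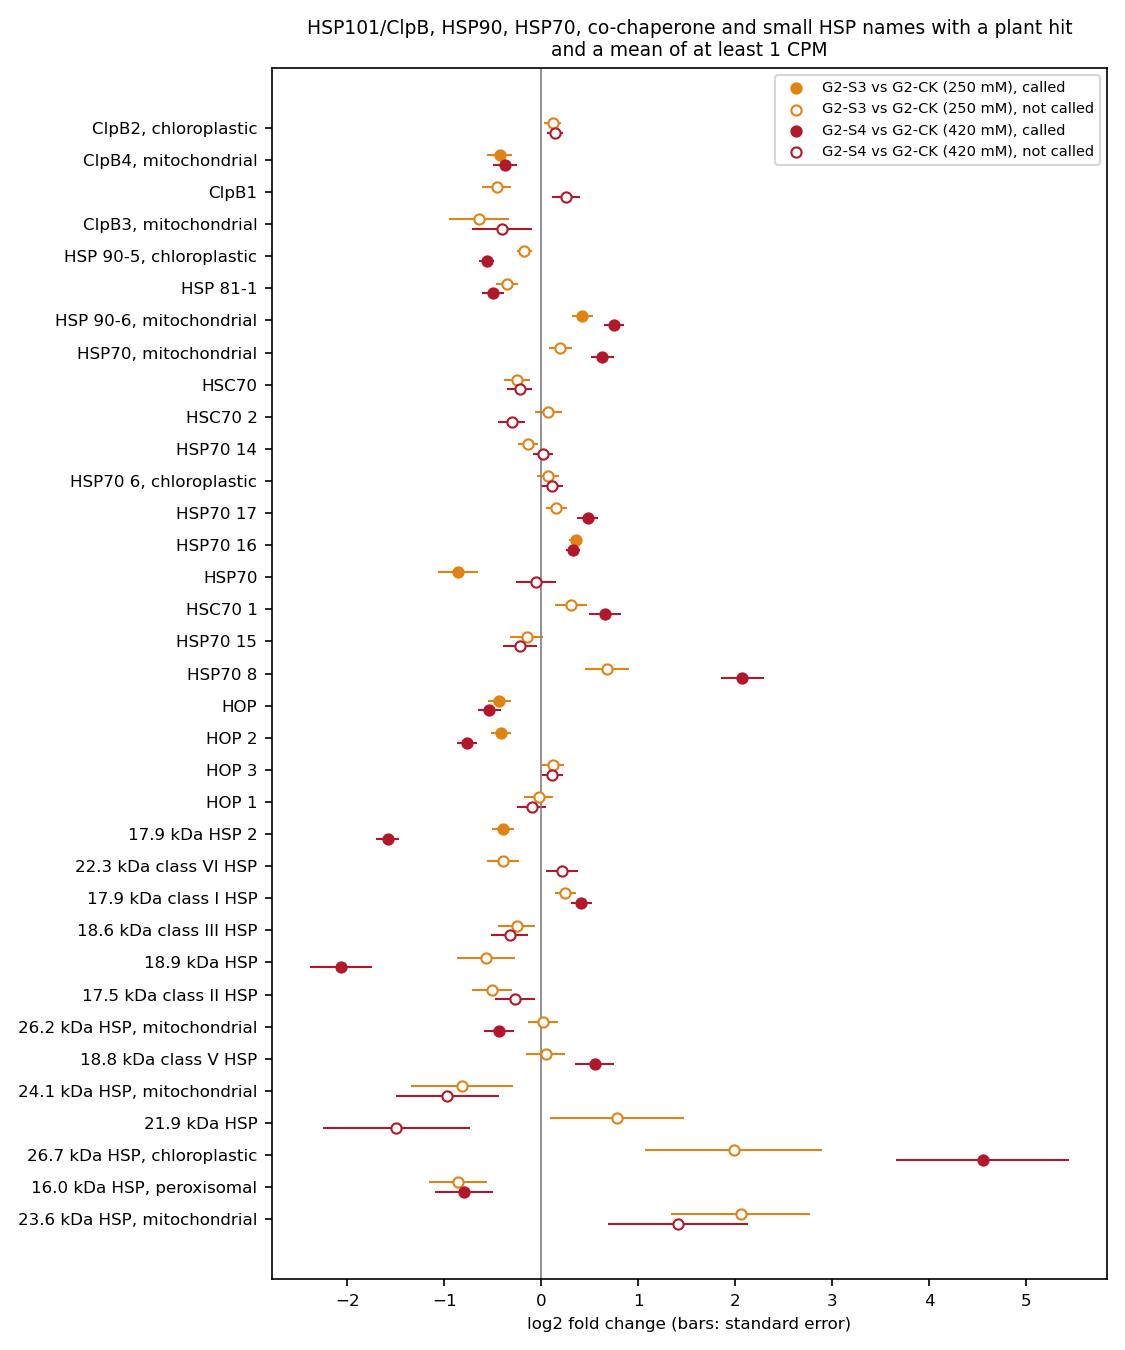
Log2 fold change with its SE (horizontal axis) of 35 chaperone and co-chaperone names in G2-S4 vs G2-CK and in G2-S3 vs G2-CK, grouped by class. Mitochondrial HSP70, HSP90-6 and HSP70-8 lie to the right (0.63, 0.75 and 2.07 in G2-S4 vs G2-CK), and HSP90-5, heat shock protein 81-1 and the organizing protein lie to the left (-0.56, -0.50 and -0.54).

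Copies of 1 name could move against each other. Of 54 names with at least 2 tested copies, 7 had copies called in both directions in G2-S4 vs G2-CK, 16 had copies called only higher and 13 only lower. In G2-S3 vs G2-CK the numbers were 3, 4 and 8. How often copies of names outside the set do so was not counted, so this is not shown to be a trait of heat shock genes. In A-2b, Cluster-14027.146242 had 2.96, 2.93 and 2.13 FPKM in G2-CK and was listed in no G2-S3 library, at least 8.91-fold lower in G2-S3, while Cluster-14027.100982 was listed in no G2-CK library and had 1.5, 0.920 and 1.29 FPKM in G2-S3, at least 4.12-fold higher. In the cognate 70 kDa protein, the 445 bp fragment Cluster-14027.214514 had 39.2, 43.1 and 30.9 FPKM in G2-S4 against 10.6, 9.83 and 8.92 FPKM in G2-CK (log2 fold change 2.04 ± 0.24 (SE), edgeR adjusted p = 0.000178), although the name was not called. In the 18.9 kDa protein, Cluster-14027.112691 fell in G2-S3 vs G2-CK (-1.08 ± 0.24 (SE)) and Cluster-14027.3099 rose (2.96 ± 0.73 (SE), with 4.01, 6.89 and 0.720 FPKM in G2-S3 against 0.690, 0.540 and 0.33 FPKM in G2-CK), with edgeR adjusted p = 0.0291 and 0.0416. These calls held in 7 and 6 of 16 alternatives.

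Some members are not plant-like. Of the 397 unigenes, 33 have their best Swiss-Prot hit outside the green plants, and for 11 the best nucleotide hit is a human sequence. All 11 were listed in G2-S4 libraries only, 9 of them in all 3, at 0.46 to 5.11 FPKM. Over the whole table, 1092 of 1120 unigenes with such a hit (97.5%) were listed in G2-S4 libraries only, whereas 5.941% of all unigenes were. Of the 11, 4 were tested and called higher in G2-S4 vs G2-CK, namely those named HSP 90-alpha, HSP 90-beta, heat shock cognate 71 kDa protein and heat shock protein beta-1, and 3 of the 4 chaperonin unigenes of the set are of this kind. Where these transcripts came from was not tested. With green plant hits only, a restriction chosen after the data were seen, 44 unigenes rose and 64 fell in G2-S4 vs G2-CK, and 14 names rose and 17 fell. None of the names given with values above is among the 11, while both activator names are among the 33.

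Partners of the heat shock machinery outside the set were looked up from a list of 114 names, of which 107 were tested. In G2-S4 vs G2-CK, 32 rose and 23 fell, beside 51.6% called over all names, and in G2-S3 vs G2-CK 4 rose and 15 fell, beside 16.0%. Of the 27 tested chaperonin and prefoldin names, 10 rose and 6 fell in G2-S4 vs G2-CK. Among those that fell, the beta subunit of the RuBisCO large subunit-binding protein, a chloroplast chaperonin that folds Rubisco, had 1399, 1412 and 1389.5 CPM in G2-CK, 1112, 926 and 1201 CPM in G2-S3 and 822, 721 and 697 CPM in G2-S4 (log2 fold change -0.91 ± 0.11 (SE), edgeR adjusted p = 0.000159 for G2-S4 vs G2-CK). The chloroplast 20 kDa chaperonin, its co-chaperonin, also fell, with group means of 821, 648 and 496 CPM (log2 fold change -0.73 ± 0.07 (SE), edgeR adjusted p = 4.89e-05). BAG family molecular chaperone regulator 1, a nucleotide exchange factor of HSP70, rose at both salt levels, with 24.3, 11.4 and 22.1 CPM in G2-CK, 101, 144 and 58.1 CPM in G2-S3 and 93.8, 103 and 118 CPM in G2-S4 (log2 fold change 2.39 ± 0.35 (SE), edgeR adjusted p = 0.00439 for G2-S3 vs G2-CK, and log2 fold change 2.45 ± 0.35 (SE), edgeR adjusted p = 0.000477 for G2-S4 vs G2-CK). HEAT-STRESS-ASSOCIATED 32, which prolongs acquired heat tolerance together with HSP101 in Arabidopsis and rice, had 44.1, 42.4 and 32.8 CPM in G2-S4 against 17.9, 18.9 and 19.9 CPM in G2-CK and 18.0, 19.01 and 17.2 CPM in G2-S3 (log2 fold change 1.07 ± 0.12 (SE), edgeR adjusted p = 9.74e-05 against G2-CK). The coactivator multiprotein-bridging factor 1c was lower in G2-S3, with 7.68, 8.07 and 12.9 CPM against 28.5, 21.5 and 17.3 CPM in G2-CK (log2 fold change -1.23 ± 0.29 (SE), edgeR adjusted p = 0.0249), and had 16.97, 20.1 and 10.3 CPM in G2-S4, where it was not called.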

How the data were processed

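RNA of 9 leaf libraries of *A. donax* G2 was measured, 3 each of G2-CK, G2-S3 and G2-S4, grouped by the labels, whose doses of 250 mM and 420 mM NaCl are used here. The deposited expected counts come from RSEM. Before that step the authors had filtered the reads, built a Trinity assembly, grouped its transcripts with Corset and aligned the libraries to it by bowtie2. FPKM values were deposited in the same lists, and each library's list holds only values above 0.3 FPKM. Base calling with CASAVA 1.8 and the use of DESeq are named in the submitters' processing notes. Columns with the authors' own comparisons were not used. No library was pooled or left out.

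For the tests the expected counts were rounded. Unlisted values were replaced by the reads that 0.3 FPKM allows (median 2.12 reads). All 9 libraries entered 1 edgeR 4.0.16 fit (limma 3.58.1, R 4.3.3) with group means, TMM factors and filterByExpr with a minimum count of 10. The quasi-likelihood F-test was two-sided, with Benjamini-Hochberg adjustment over 127554 unigenes and a threshold of 0.05. A library's total, fitted from its counts, lengths and FPKM, was 23.01 to 25.69 M reads, of which listed reads made up 98.96 to 99.06%. Counts summed over unigenes with 1 Swiss-Prot name, a missing value counting as 0, were tested in the same way over 12242 names. Tables were made with Python 3.11.15 and pandas 2.3.3, and figures with matplotlib 3.10.9. The fits were tested on simulated data. The replicates are biological by the study's methods, and p-values measure the spread between 3 plants or pots per group.

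Named were, per class, the 3 protein names with the most reads and, per comparison, up to 3 higher and 3 lower names averaging 1 CPM or more. Of unigenes, the 2 highest per class and, per comparison, up to 2 higher and 2 lower whose groups do not overlap were taken, and every tested HSF name was placed by its direction. Further unigenes and names, such as single copies, BIP5 and the partners given with values, were chosen after their values were seen. The members and the lists were chosen with earlier results of these data known. Alternatives were RLE factors, DESeq2 1.42.0, no filter, other treatments of missing values, library sizes from listed reads, a replicate block and leaving out each library. The restriction to green plant hits and the alternatives for class sums were added after the data were seen.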

Additional observations from a re-analysis of the deposited data

How the results depend on the processing

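Counts of members called in G2-S4 vs G2-CK kept within 1.5 times under DESeq2, RLE factors, library sizes from listed reads, other treatments of missing values and no filter. In G2-S3 vs G2-CK, 4 unigenes rose and 11 fell with missing values as 0, and 1 rose and 11 fell without the filter on low counts, which also left 13 lower in G2-S4 vs G2-S3. Leaving out 1 library gave 0 to 10 higher and 7 to 28 lower unigenes in G2-S3 vs G2-CK, 37 to 53 and 51 to 68 in G2-S4 vs G2-CK, and 21 to 30 and 14 to 22 when G2-S4 and G2-S3 were compared. For protein names it gave 0 to 5 higher and 2 to 10 lower in G2-S3 vs G2-CK, 17 to 22 and 13 to 21 in G2-S4 vs G2-CK, and 11 to 18 and 5 to 6 between G2-S4 and G2-S3. Of the calls of named items, those held in every alternative were 4 of 27 (G2-S3 vs G2-CK), 53 of 70 (G2-S4 vs G2-CK) and 23 of 44 (G2-S4 vs G2-S3). The cause was not tested.

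Same-numbered libraries did not deviate together (correlations -0.109 to 0.039). With 3 libraries per group this does not exclude that the replicate numbers pair samples. By the study's methods the pots stood in a randomized block scheme, and the labels do not say whether the numbers are blocks. With the replicate block, 4 unigenes rose and 14 fell in G2-S3 vs G2-CK, and 4 names fell there. Between G2-S4 and G2-S3 the block left 4 lower names.

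Without normalization factors, the log2 ratio of the class sums in G2-S4 vs G2-CK was -0.79 for HSFs, -0.92 for class A factors, -0.65 for HSP90, -0.69 for small HSPs and -0.44 for all members, and turned to -0.0647 for ClpB and to -0.0183 for HSP70. In this setting it was -0.24 for all members and -0.036 (0.012 with factors) for class C factors in G2-S3 vs G2-CK, and -0.36 for small HSPs in G2-S4 vs G2-S3. Unigenes at or below 0.3 FPKM limit what can be said of low copies, since 22.6% of the pairs of member and library are not listed.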
